A study of Mus musculus with 15 samples.

Results

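The genes examined were 10 receptors and enzymes of extracellular purine signalling, namely the ATP-gated channels *P2rx4* and *P2rx7*, the P2Y receptors *P2ry2*, *P2ry6*, *P2ry12* and *P2ry14*, the adenosine receptors *Adora2a* and *Adora2b*, and the ectonucleotidases *Entpd1* and *Nt5e*. They were chosen by symbol, and each of the 10 was found among the 78317 Ensembl gene identifiers of the count table. The sequenced RNA came from MH-S, an SV40-transformed alveolar macrophage line of the mouse, with 3 libraries in each of 5 groups. All groups were kept for 24 h, M0 in medium alone, M1 with LPS (1 µg/mL) plus IFN-γ (20 ng/mL), M2 with IL-4 (20 ng/mL), and the CaP and SiO2 groups with microrods of calcium phosphate or silica nanoparticles at 0.1 mg/mL. Both microrods also carried alginate, protamine and carboxymethyl chitosan, so that the effect of the core and of these polymers cannot be told apart against M0. All wells held 1 cell passage and each microrod well held its own particle batch, so p-values measure the spread between wells and particle batches.

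ATP and other nucleotides leave stressed or dying cells and act on 2 kinds of surface receptor, the P2X cation channels and the G-protein-coupled P2Y receptors. CD39, encoded by *Entpd1*, removes phosphates from ATP and ADP down to AMP, CD73, encoded by *Nt5e*, turns AMP into adenosine, and adenosine acts on receptors of its own. In macrophages *P2rx7* is known for its part in activating the NLRP3 inflammasome, and *Adora2a* and *Adora2b* for restraining the release of inflammatory cytokines.

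Library totals lay between 8459643 and 68750050 counts. The group medians were 15489487 in M0, 12055311 in M1, 14442586 in M2, 37729206 in CaP and 20244091 in SiO2. Markers of the stimuli followed the labels, with *Il1b* at 411 ± 46.9 CPM in M1 against 1.07 ± 0.231 in M0, and *Arg1* at 1550 ± 171 in M2 against 10.99 ± 3.29 in M0 (mean ± SD, n = 3; CPM is the count relative to the scaled library size). Of 9 macrophage markers 8 passed the filter on low counts, whereas only 3 of 7 alveolar macrophage markers did, and *Siglecf*, *Car4* and *Chil3* stayed at or below 0.478 CPM in every library. The 7 alveolar macrophage markers summed to 25.9 to 31.9 CPM in M2 and to 1.06 to 5.93 CPM in the other groups. The M2 sum was mostly *Mrc1*, since no other marker of this set exceeded 2.82 CPM in any library. It thus does not describe the set as a whole. Markers of epithelium, fibroblasts and lymphocytes summed to at most 0.172 CPM in any library, and the endothelial pair to at most 1.71 CPM. The 3 neutrophil markers summed to 0.486 to 1.30 CPM in M1 and to at most 0.308 CPM in the other groups. This sum was almost all *S100a8*, since *S100a9* had 0 counts in every library and *Ly6g* at most 1. The part of *S100a8* in the M1 results was not tested. The 9 macrophage markers summed to 1438 to 2209 CPM in M2 and to 2686 to 3662 CPM in the other groups.

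The 10 genes spanned a wide range of levels in untreated cells. In M0, *P2rx7* was the most abundant per length, at 15.8 ± 0.374 CPM per kb of exon. It was followed by *Adora2b* at 5.55 ± 2.13, *P2ry6* at 4.91 ± 1.75 and *P2rx4* at 3.90 ± 0.279 CPM per kb, which overlapped between libraries. Then came *Entpd1* at 1.44 ± 0.527, *P2ry12* at 0.653 ± 0.126, *P2ry2* at 0.491 ± 0.121 and *P2ry14* at 0.1005 ± 0.057 CPM per kb, of which *P2ry12* and *P2ry2* overlapped. *Adora2a* and *Nt5e* were close to 0, with 1 and 6 counts over the 3 M0 libraries. In M1 the order at the top changed, and the level of *Adora2b*, 17.1 to 27.8 CPM per kb, lay above that of *P2rx7*, 10.9 to 12.9, in every library.

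**Figure D1:**
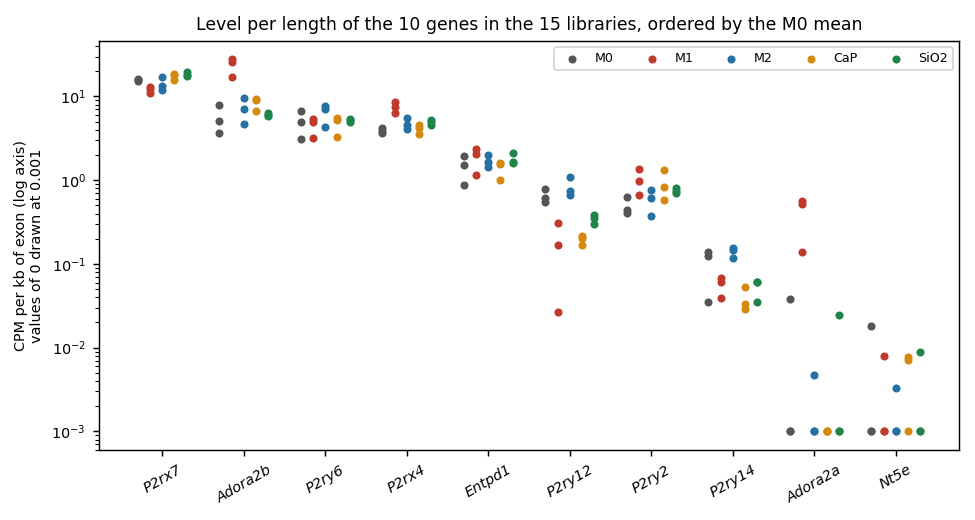
Level per length of each gene in each of the 15 libraries (CPM per kb of exon, log axis, 1 point per library, values of 0 drawn at 0.001), ordered by the M0 mean. *P2rx7* leads in M0 at 15.8 CPM per kb, and the M1 points of *Adora2b* (17.1 to 27.8) and *Adora2a* (0.14 to 0.571) stand above those of the other groups.

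Differences between groups were tested with edgeR's quasi-likelihood test over all 16654 genes that passed the filter, and a gene was called where its Benjamini-Hochberg adjusted p was below 0.05 and its log2 fold change exceeded 0.5 in either direction. Of the 10 genes 8 were tested, and *Adora2a* and *Nt5e* were too low. In M1 against M0, 3 of the 8 were called where 14.1% of all genes tested were. *Adora2b* and *P2rx4* were the 2 higher ones, in a comparison with 9.7% of all genes called higher, and *P2ry12* was lower, as were 4.35% of all genes. DESeq2 called 4 genes, these and *Adora2a*, against 14.1% of all genes; nearly all counts of *Adora2a* were in M1, so its entry there rests on M1 itself. In M2 against M0 edgeR called 0 of the 8 against 4.13% of all genes, 0 had an unadjusted p below 0.05 against 17.2%, and DESeq2 called 0 against 5.08%. IL-4 thus left none of the 8 past these thresholds. In CaP against M0 *P2ry12* alone was called, against 0.654% of all genes and 0.228% called lower. Of the 8 genes 3 had an unadjusted p below 0.05 in CaP against 15.8% of all genes, and DESeq2 called 1 against 2.49%. In SiO2 against M0 edgeR called 0 against 0.264%, 2 had an unadjusted p below 0.05 against 8.15%, and DESeq2 called 0 against 0.657%. Between CaP and SiO2 edgeR called 0 against 0.018%, 1 had an unadjusted p below 0.05 against 1.66%, and DESeq2 called 0 against 0.0852%. With the microrods, *P2ry12* was the only gene past the edgeR call.

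Among the pairs of groups without M0, 3 genes each were called between M2 and M1 (16.1% of all genes), CaP and M1 (12.6%), and SiO2 and M1 (10.4%). Between CaP and M2 2 were called (4.43% of all genes), and between SiO2 and M2 0 (3.65%) with 3 at an unadjusted p below 0.05; DESeq2 was not run on these pairs. The 8 genes had a median log2 fold change of 0.15 in M1, 0.30 in M2, 0.04 in CaP and 0.18 in SiO2 against M0, beside −0.01, 0.07, 0.06 and −0.02 over all genes tested. These 4 comparisons share the M0 libraries. In bulk RNA, fewer cells of a kind and less RNA per cell cannot be told apart.

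**Figure D2:**
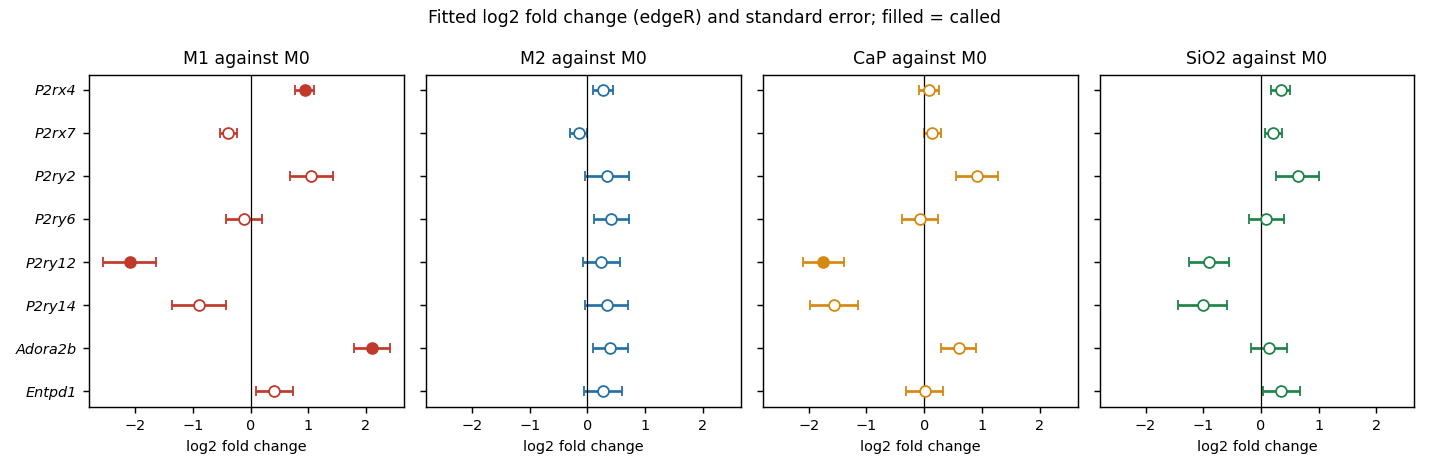
Fitted log2 fold change (x axis) with its standard error (bar) of the 8 genes tested, against M0, with 1 panel per group and filled points where the gene was called. Filled points are *P2rx4* (0.94), *P2ry12* (−2.09) and *Adora2b* (2.10) in M1 and *P2ry12* (−1.75) in CaP.

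The 250 bases before the RefSeq start of the genes called against M0 are shown because these are the genes whose level differed. They are from the GRCm38.p6 build, an earlier one than that of the counts, at chr11:62248734-62248983 on the plus strand for *Adora2b*, chr5:122707294-122707543 on the plus strand for *P2rx4*, and chr3:59262986-59263235 on the minus strand for *P2ry12*. Each is written 5′ to 3′ toward the start, with matches of the motifs searched in capitals.
Adora2b: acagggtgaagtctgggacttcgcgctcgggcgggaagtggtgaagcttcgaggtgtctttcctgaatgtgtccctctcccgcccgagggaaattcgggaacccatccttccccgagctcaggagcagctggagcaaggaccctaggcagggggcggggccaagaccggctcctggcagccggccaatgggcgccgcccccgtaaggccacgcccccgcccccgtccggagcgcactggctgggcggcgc
P2rx4: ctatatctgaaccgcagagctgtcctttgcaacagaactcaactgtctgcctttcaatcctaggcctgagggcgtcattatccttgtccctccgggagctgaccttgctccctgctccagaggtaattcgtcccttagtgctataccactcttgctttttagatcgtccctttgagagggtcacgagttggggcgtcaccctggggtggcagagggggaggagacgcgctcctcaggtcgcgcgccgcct
P2ry12: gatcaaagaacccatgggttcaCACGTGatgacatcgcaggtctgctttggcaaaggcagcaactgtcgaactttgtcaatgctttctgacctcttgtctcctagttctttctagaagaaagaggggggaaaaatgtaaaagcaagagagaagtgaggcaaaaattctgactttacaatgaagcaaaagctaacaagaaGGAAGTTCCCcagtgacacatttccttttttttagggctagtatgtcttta
The motifs, searched on both strands after the levels were known, were the NF-kB consensus, GAS (TTCNNNGAA), ISRE (TTTC, any 2 bases, TTTC), AP-1 (TGACTCA or TGAGTCA), CRE (TGACGTCA), the hypoxia element (ACGTG) and the TATA box (TATAAA). The *Adora2b* and *P2rx4* windows held 0 matches of any of the 7. The *P2ry12* window held 1 match of NF-kB, GGAAGTTCCC with its first base 51 bases before the start, and the hypoxia element on both strands at a palindromic CACGTG whose first base lies 228 bases before it. NF-kB matched in 7.25% of 32851 mouse windows of this length and the hypoxia element in 16.6%. GAS matched in 7.02%, ISRE in 2.98%, AP-1 in 4.46%, CRE in 1.55% and the TATA box in 12.4%. The GC content was 69.6% for *Adora2b* with 22 CpG, 57.2% for *P2rx4* with 13 CpG and 41.6% for *P2ry12* with 3 CpG, beside medians of 52.4% and 6 CpG over all windows. RefSeq gave a start for 8 of the 10 genes. The bases just after the *P2ry12* start were not found in any annotated transcript of that gene. Those after the *Adora2b* and *P2rx4* starts were found in transcripts of these genes. The distances given for *P2ry12* thus hold for the RefSeq start only. A match is a run of letters and was not tested as a binding site.

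Among the ATP-gated channels, *P2rx4* rose in M1 and *P2rx7* did not pass the test against M0 in any group. *P2rx4* encodes a channel found on the surface and in lysosomes of macrophages. Its level was 27.0, 25.7 and 29.5 CPM in the M0 libraries and 44.0, 53.3 and 60.1 CPM in the M1 libraries. It lay at 38.4, 28.7 and 31.8 CPM in M2, at 25.3, 29.5 and 32.1 CPM in CaP, and at 36.7, 34.9 and 32.5 CPM in SiO2. All 3 M1 libraries were above all 12 others; the libraries of M1 and M0 did not overlap for 32.2% of all genes tested. The log2 fold change of M1 against M0 was 0.94 ± 0.17 (SE), a fold of 1.92 (edgeR adjusted p = 0.00188). M1 also exceeded M2, CaP and SiO2, where the log2 differences of these groups from M1 were −0.67, −0.86 and −0.60 (edgeR adjusted p = 0.0141, 0.00337 and 0.0335). The other 4 groups did not differ by a called amount. All 3 SiO2 libraries lay above all 3 M0 libraries, at a log2 fold change of 0.34 ± 0.17 (edgeR adjusted p = 0.647), and groups of libraries did not overlap for 18% of all genes in this comparison.

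*P2rx7*, the channel that opens at high ATP concentrations, was not called against M0. It lay at 93.6, 92.1 and 96.5 CPM in M0, 74.0, 65.0 and 77.2 CPM in M1, and 80.7, 103 and 71.0 CPM in M2. The microrod libraries held 94.0, 110 and 107 CPM with CaP and 107, 104 and 116 CPM with SiO2. The M1 libraries were below all M0, CaP and SiO2 libraries but overlapped M2. Libraries of M1 and M0 did not overlap for 32.2% of all genes tested, and this share was not counted for M1 against CaP or SiO2. M1 differed from M0 by −0.38 ± 0.15 on the log2 scale (edgeR adjusted p = 0.113), and DESeq2 gave −0.41 with an adjusted p of 0.0491, which was under the fold threshold. The level was higher in CaP than in M1 by 0.52 ± 0.15 (edgeR adjusted p = 0.0357) and higher in SiO2 than in M1 by 0.60 ± 0.15 (edgeR adjusted p = 0.021), both called. *P2rx7* and *P2rx4* are adjacent coding genes in the mouse genome.

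The adenosine receptors showed the largest rises among the 10 genes. *Adora2b* encodes an adenosine receptor of low affinity. Its level was 6.74, 14.5 and 9.50 CPM in M0 and 31.6, 51.2 and 48.0 CPM in M1, so that every M1 library was above every other library of the series. Libraries of M1 and M0 did not overlap for 32.2% of all genes tested. The *Adora2b* window before the start, shown above, was the most GC-rich of the 3. Windows of *Nt5e* (72%) and *P2ry2* (71.2%), neither of them called, were richer still. M2 held 17.7, 8.69 and 13.1 CPM, CaP 12.4, 16.6 and 17.2 CPM, and SiO2 11.01, 11.7 and 10.8 CPM. The log2 fold change of M1 against M0 was 2.10 ± 0.31, a fold of 4.30 (edgeR adjusted p = 4.18e-04). *Adora2b* was also higher in M1 than in M2, CaP and SiO2, with log2 differences from M1 of −1.71, −1.51 and −1.97 (edgeR adjusted p = 0.00134, 0.00362 and 7.10e-04). M2, CaP and SiO2 did not differ from M0 or from each other by a called amount. CaP lay above SiO2 in every library, at a log2 difference of 0.46 with an interval of −0.12 to 1.04 (95%, from the standard error; edgeR adjusted p = 1.00), where libraries did not overlap for 8.1% of all genes.

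*Adora2a*, which encodes an adenosine receptor of high affinity, was seen almost only in M1. It had 5, 23 and 18 counts in the M1 libraries, or 0.430, 1.57 and 1.75 CPM. Outside M1 it had 3 counts in 12 libraries, 9 of which held 0, with 1 count each in 1 library of M0, M2 and SiO2 and 0 counts in CaP. Pooled over libraries and scaled by their totals, M1 was 78.0 times M0, with a 95% counting interval of 13.3 to 3147. Against CaP, with 0 counts, M1 was at least 43.7-fold higher, taking 3 counts over the group as the floor. The gene did not pass the low-count filter, which asked for 0.672 CPM in at least 3 libraries, since 2 libraries reached it, both of M1. DESeq2, which tested it, gave a log2 fold change of 5.82 against M0 with an adjusted p of 0.00274, and edgeR without the filter gave an adjusted p of 1.50e-08. Both rest on the same few counts and add no support to them. Even in M1 the level of *Adora2a*, 0.408 ± 0.234 CPM per kb, was far below that of *Adora2b* at 23.6 ± 5.72 CPM per kb. Amplified cDNA was counted without molecular identifiers, so these limits cover counting error only.

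**Figure D3:**
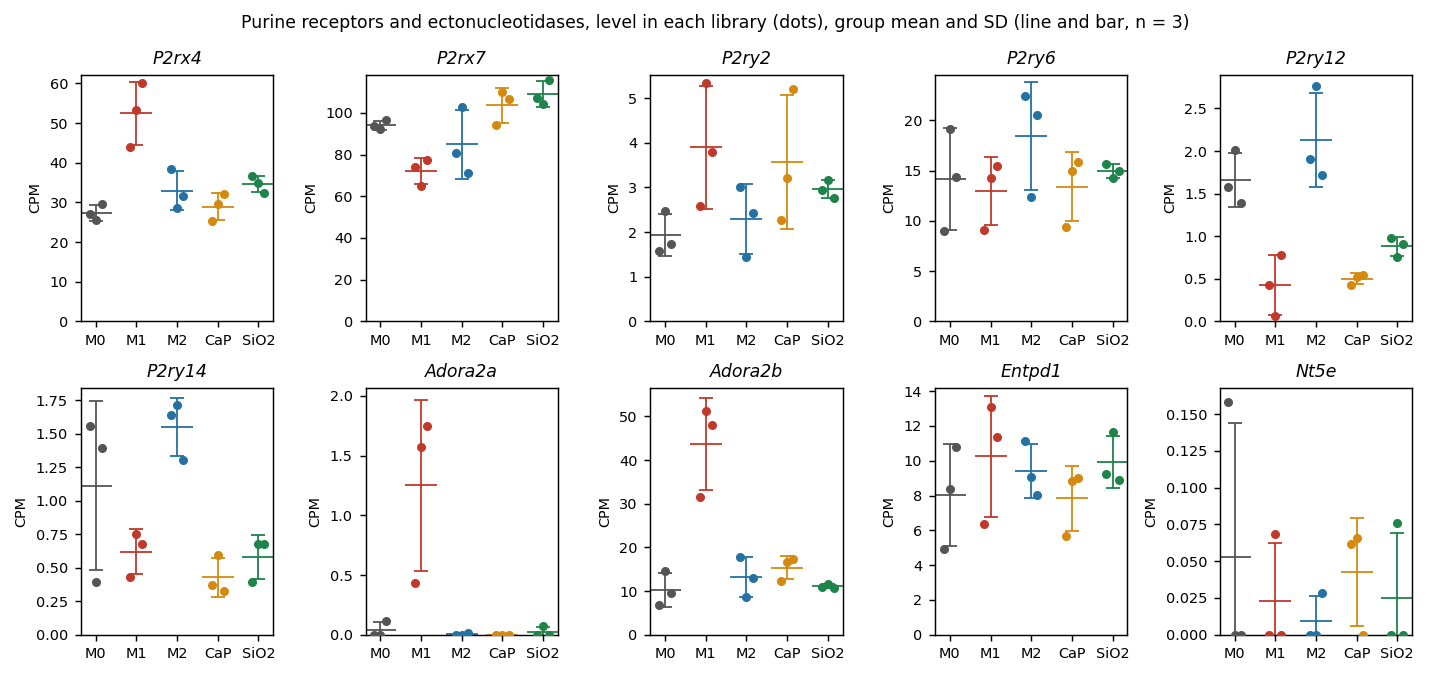
Level of each of the 10 genes in each library (CPM, dots), with the group mean (line) and SD (bar) over 3 libraries, 1 panel per gene with its own axis from 0. *Adora2b*, *P2rx4* and *Adora2a* stand high in M1, *P2ry12* is low in M1 (0.0684 to 0.777 CPM) and CaP (0.431 to 0.548 CPM), and *Nt5e* stays at or below 0.158 CPM.

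*P2ry12*, which encodes an ADP receptor best known from platelets and microglia, was called lower in M1 and CaP, though not in all fits. It lay at 1.58, 2.02 and 1.39 CPM in M0 (60, 31 and 12 counts). In M1 it was at 0.430, 0.0684 and 0.777 CPM, which were 5, 1 and 8 counts. CaP held 0.431, 0.526 and 0.548 CPM (21, 8 and 22 counts), SiO2 0.979, 0.756 and 0.911 CPM (20, 10 and 23 counts), and M2 1.91, 2.76 and 1.72 CPM (28, 21 and 120 counts). The M0 and M2 libraries were above all others and overlapped each other, and the CaP libraries were below all SiO2 libraries. CaP and M0 libraries did not overlap for 17.4% of all genes, and CaP and SiO2 libraries for 8.1%. The share was 32.2% for M1 and M0 and 18% for SiO2 and M0. Against M0 the log2 fold change was −2.09 ± 0.46 in M1 (edgeR adjusted p = 0.00727) and −1.75 ± 0.35 in CaP (edgeR adjusted p = 0.0428). In SiO2 it was −0.90 ± 0.35, which was not called (edgeR adjusted p = 0.507). CaP and SiO2 differed by −0.85 on the log2 scale, with a 95% interval of −1.61 to −0.10 and an edgeR adjusted p of 1.00. M2 was higher than M1 by 2.33 ± 0.44 (edgeR adjusted p = 0.00244) and CaP lower than M2 by 1.99 ± 0.35, a log2 difference of −1.99 (edgeR adjusted p = 0.00304).

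The CaP call of *P2ry12* was close to the threshold and did not hold in all fits. DESeq2 gave a log2 fold change of −1.76 with an adjusted p of 0.00379. The call was lost with edgeR's legacy quasi-likelihood (−1.74, adjusted p = 0.126), with a replicate block over all 15 libraries (adjusted p = 0.0965), in the fit of the 6 libraries compared (−1.76, adjusted p = 0.169) and on thinning all libraries to the size of the smallest (−1.30, adjusted p = 0.255). Leaving out any 1 of the 6 M0 and CaP libraries ended the call, with log2 fold changes between −1.87 and −1.61 and adjusted p-values between 0.0742 and 0.195. In M1 the call held when any 1 library was left out, at −1.49 without M1 replicate 2 and −2.84 without M1 replicate 3. It was lost on thinning (adjusted p = 0.0525) and with a replicate block over the 6 M0 and M1 libraries (adjusted p = 0.0614), but not with the block over all 15 libraries (adjusted p = 0.0159). *P2ry12* and *P2ry14* lie within *Med12l* on its opposite strand, and the library protocol does not mark the strand. *P2ry12* shares 9 exon bases with *Med12l* and *P2ry14* shares 0. *Med12l* had 1 to 20 counts per library, at 0.290 to 1.16 CPM in M0 and 0.0972 to 0.342 CPM in M1. It lay at 0.263 to 0.286 CPM in M2, 0.249 to 0.349 CPM in CaP and 0.238 to 0.529 CPM in SiO2. Its part in these results was not tested.

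*P2ry14*, the receptor of UDP-glucose, was not called against M0. Its M0 libraries were at 1.55, 0.390 and 1.39 CPM, so that replicate 2, with 6 counts, stood apart from the other two and lay within the range of the CaP libraries. M1 was at 0.430, 0.752 and 0.680 CPM, M2 at 1.64, 1.71 and 1.30 CPM, CaP at 0.369, 0.592 and 0.324 CPM, and SiO2 at 0.392, 0.681 and 0.674 CPM. All M2 libraries were above all M1, CaP and SiO2 libraries. The share of all genes that separate in this way was not counted for these pairs. CaP differed from M0 by −1.56 ± 0.42 on the log2 scale (edgeR adjusted p = 0.110), SiO2 by −1.01 ± 0.43 (edgeR adjusted p = 0.554) and M1 by −0.89 ± 0.47 (edgeR adjusted p = 0.238). Without M0 replicate 2 these became −1.92 with an adjusted p of 0.019 in CaP and −1.26 with an adjusted p of 0.0431 in M1, both called. These were the 1 of 6 fits without 1 library that called the gene in each comparison, with log2 fold changes up to −0.33 and adjusted p-values up to 0.825 in M1 and up to −0.999 and 0.623 in CaP, each without M0 replicate 1. Against M2, CaP was lower at a log2 difference of −1.89 ± 0.40 (edgeR adjusted p = 0.0136). The M0 libraries still entered this fit through the shared estimate of the spread. The comparison does not measure CaP against M0 and adds no support to a fall there.

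The UTP- and ATP-sensitive *P2ry2* and the UDP-sensitive *P2ry6*, adjacent coding genes, were not called in any pair of groups. *P2ry2* lay at 1.58, 2.47 and 1.74 CPM in M0, 2.58, 5.33 and 3.79 CPM in M1, and 3.00, 1.45 and 2.43 CPM in M2. CaP held 2.28, 3.22 and 5.21 CPM, and SiO2 2.94, 3.18 and 2.77 CPM. The M1 and SiO2 libraries were above all M0 libraries, and the CaP libraries overlapped those of M0. Libraries did not overlap for 32.2% of all genes in M1 against M0 and for 18% in SiO2 against M0. The log2 fold change against M0 was 1.06 ± 0.38 in M1 (edgeR adjusted p = 0.0825), 0.92 ± 0.36 in CaP (edgeR adjusted p = 0.251) and 0.63 ± 0.38 in SiO2 (edgeR adjusted p = 0.722). *P2ry6*, about 10 times as abundant per length in M0 by the means given above, had group means from 12.95 ± 3.37 CPM in M1 to 18.5 ± 5.36 CPM in M2, and its libraries overlapped between M0 and every other group. Its 95% intervals against M0 were −0.73 to 0.50 in M1, −0.19 to 1.02 in M2, −0.67 to 0.53 in CaP and −0.51 to 0.70 in SiO2 on the log2 scale.

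Of the pair of enzymes that turn ATP into adenosine, the first was expressed and the second almost absent. *Entpd1* lay at 4.93, 8.39 and 10.8 CPM in M0 and 6.36, 13.1 and 11.4 CPM in M1. M2 held 11.1, 9.08 and 8.03 CPM, CaP 5.68, 8.81 and 9.02 CPM, and SiO2 9.25, 11.6 and 8.92 CPM. All groups overlapped M0, and no pair of groups was called. Between libraries of the same number, which the labels do not call pairs, M1 was above M0 in 3 of 3. How many of all genes did so was not counted. The log2 fold change of *Entpd1* in M1 was 0.39 with a replicate block over all 15 libraries and 0.32 over the 6 of M1 and M0. Neither was called (edgeR adjusted p = 0.429 and 0.342). The 95% interval of its log2 fold change against M0 was −0.22 to 1.05 in M1, −0.36 to 0.90 in M2, −0.61 to 0.63 in CaP and −0.27 to 0.98 in SiO2. *Nt5e* had 14 counts in all 15 libraries together, 6 of them in M0 replicate 1, and 0 counts in 9 libraries. Its highest level was 0.158 CPM, and no difference between groups was detectable at this depth.

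Several genes varied together among libraries of a group. In each of M0, M1 and CaP, the library numbered 1 had the lowest level of *P2ry2*, *P2ry6*, *Adora2b* and *Entpd1*. In M2 replicate 2 was the lowest for *P2ry2*, *P2ry6* and *Adora2b*, while it was the highest of M2 for *P2rx7* and *P2ry12*. In SiO2 the spread was small, with an SD of 0.203 CPM for *P2ry2*, 0.720 for *P2ry6* and 0.493 for *Adora2b*, beside 0.476, 5.06 and 3.93 CPM in M0. Whether culture, RNA or library preparation moved with these levels was not tested.

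For each gene called against M0, the 3 genes with the most similar log2 CPM over the 15 libraries were looked up as a description. For *Adora2b* they were *Pim2*, *Rac2* and *Nfe2l1*, with a Pearson r of 0.98 each. For *P2rx4* they were *Tubb2a*, *Srd5a3* and *Car13*, with r of 0.96, 0.95 and 0.92. For *P2ry12* they were *F630028O10Rik*, *Abcd2* and *Samd9l*, with r of 0.91, 0.89 and 0.89. The 15 points fall in 5 groups and share library size and scaling between genes.

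A wider list of 35 other genes, taken as purinergic, covered nucleotide release, other receptors, other surface hydrolases, and uptake and intracellular enzymes. Of these 15 were tested. The list counts *P2ry10* and *P2ry10b* as receptors, and whether these bind purines was not tested. In M1 against M0 5 were called, of which 4 were higher and 1 lower, beside 14.1% of all genes called, 9.7% higher and 4.35% lower. The count gives no support to a change of the list, because *Slc28a2*, *Slc28a3* and *Gja1* entered the test only through their M1 libraries and *P2ry13* only through those of M0. The calls of these 4 genes given below, and their fits without 1 library, rest on that entry and add no support. *Slc28a3* reached 0.672 CPM in 0 libraries outside M1, *Slc28a2* in 1 of CaP and *Gja1* in 1 of M0. *P2ry13* reached it in 3 M0 libraries, 1 of CaP and 1 of SiO2. *Bst1* reached it in 13 libraries, 10 of them outside M1. *Slc28a2*, a concentrative nucleoside transporter, was at 0.184, 0.650 and 0.232 CPM in M0 and 4.13, 5.88 and 3.40 CPM in M1, a log2 fold change of 3.80 ± 0.55 (edgeR adjusted p = 2.97e-04). It stayed called when any 1 library was left out, at 3.17 without M0 replicate 1 and 4.50 without M0 replicate 2. *Slc28a3*, of the same transporter family, had 10, 1 and 0 counts in M0 and 11, 16 and 9 in M1, a log2 fold change of 2.48 ± 0.62 (edgeR adjusted p = 0.0135), which was 4.37 without M0 replicate 1 and not called without M1 replicate 2 (adjusted p = 0.059).

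*Bst1*, which encodes the NAD-cleaving surface enzyme CD157, was higher in M1 by 1.67 ± 0.37 on the log2 scale (edgeR adjusted p = 0.00817), at 2.92 to 3.49 CPM beside 0.715 to 1.62 CPM in M0, and stayed called when any 1 library was left out. *Gja1*, encoding connexin 43, a channel through which ATP can leave cells, was higher in M1 by 1.20 ± 0.37 (edgeR adjusted p = 0.0417). As stated above, this gene was tested only through its M1 libraries. DESeq2 gave *Gja1* an adjusted p of 0.189, and it was called in only 1 of 6 fits without 1 library, that without M0 replicate 2. With the replicate block over all 15 libraries its adjusted p was 0.0595. *P2ry13*, an ADP receptor next to *P2ry12*, entered the test only through its M0 libraries. It was lower in M1 at −2.05 ± 0.61 (edgeR adjusted p = 0.0341) and lower in M2 at −1.99 ± 0.50 (edgeR adjusted p = 0.0324). It had 30, 12 and 8 counts in M0, 4, 2 and 1 in M1, and 3, 0 and 16 in M2. Both calls held in 1 of 6 fits without 1 library, those without M1 replicate 1 and without M2 replicate 2, with adjusted p-values between 0.032 and 0.161 in M1 and between 0.0278 and 0.149 in M2. The replicate block over the 6 M0 and M1 libraries gave *P2ry13* an adjusted p of 0.0578 in M1.

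*P2ry13* was the only gene of the wider list called in M2, beside 4.13% of all genes, and 4 of the 15 had an unadjusted p below 0.05, beside 17.2%. Neither CaP, SiO2 nor the comparison between them had a call in the list by edgeR. In CaP 3 of the 15 had an unadjusted p below 0.05, beside 15.8% of all genes, and DESeq2 called 0, beside 2.49%. In SiO2 these were 1, beside 8.15%, and 0, beside 0.657%. Between CaP and SiO2 they were 0, beside 1.66%, and 0, beside 0.0852%. The 15 genes had a median log2 fold change of 0.44 in M1, 0.11 in M2, 0.12 in CaP and 0.05 in SiO2 against M0, beside −0.0060, 0.068, 0.060 and −0.021 over all genes tested. These medians hold *Slc28a2*, *Slc28a3* and *Gja1*, tested only through M1, and *P2ry13*, tested only through M0. The M1 median is thus partly set by the filter and gives no support to a rise of the list. Among the 20 that were not tested, no library had more than 22 counts, which was reached by *Adora3*. They included the release channel *Panx1* at up to 2 counts, the ADP receptor *P2ry1* at up to 1, and the surface enzymes *Alpl*, *Enpp1* and *Cd38* at up to 1, 5 and 8 counts.

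**Figure D4:**
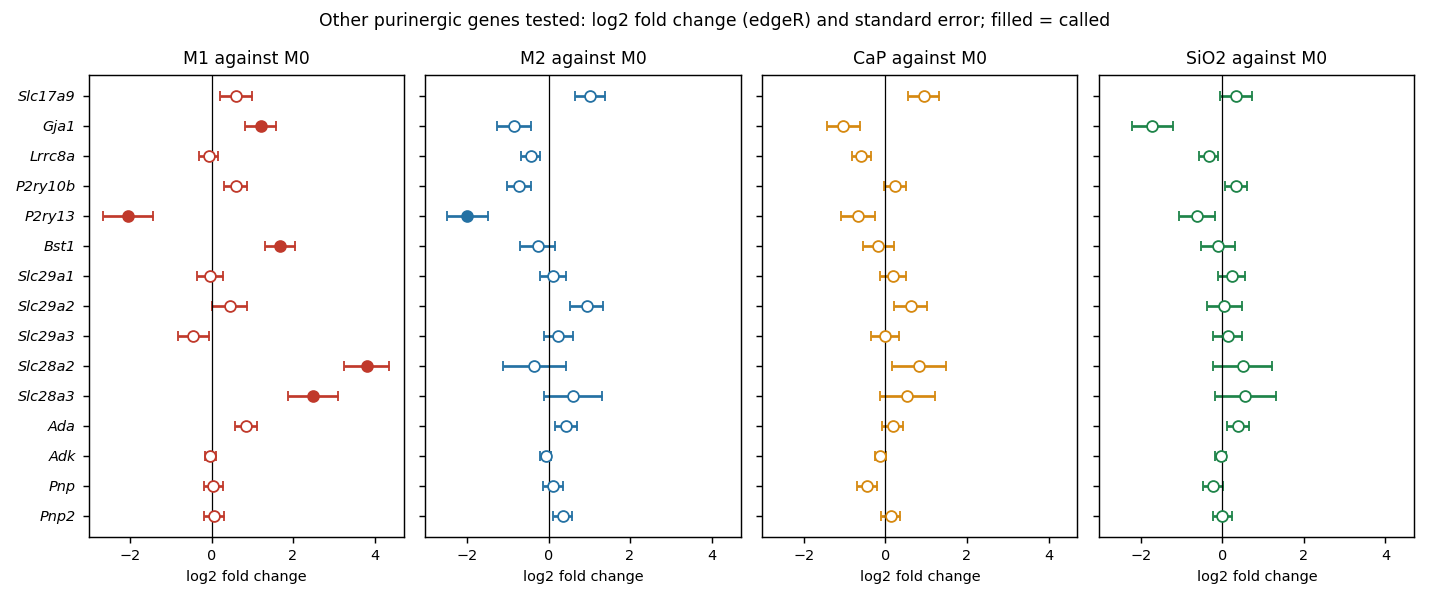
Fitted log2 fold change (x axis) with its standard error (bar) against M0 of the 15 genes of the wider purinergic list that were tested, 1 panel per group, filled where called. *Slc28a2* (3.80), *Slc28a3* (2.48), *Bst1* (1.67), *Gja1* (1.20) and *P2ry13* (−2.05) are filled in M1 and *P2ry13* (−1.99) in M2.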

How the data were processed

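RNA of MH-S cells was made into Smart-seq2 libraries of amplified poly-A cDNA. The authors aligned the reads with STAR and quantified them with Salmon in the nf-core/rnaseq pipeline on an Ensembl annotation, and deposited raw counts per gene without normalization (whole numbers, which may be rounded Salmon estimates). The files' build was GRCm39, per the labels. Whether counting used strand is not given in the sources used here. All 15 columns were mapped by name, and 0 were left unused. Symbols and exon lengths came from a GRCm38 annotation, which named 51487 of 78317 identifiers.

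Tests used edgeR 4.0.16 in R 4.3.3 (filterByExpr by group, TMM, glmQLFit without the legacy option, all 15 libraries, 1 coefficient per group), with Benjamini-Hochberg adjustment over all genes tested. The newer quasi-likelihood was taken after the results of the legacy one, the default of this version, had been seen, and it decides the CaP call of *P2ry12*. DESeq2 1.42.0 was an alternative. Levels are CPM with the SD over 3 libraries. With 3 against 3, an exact two-sided permutation test cannot go below 0.1. The library size sets what 1 count is worth, from 0.0143 to 0.132 CPM. The labels number the libraries but do not say that they were handled as pairs. Same-numbered libraries of M1 and M0 deviated together in 3 of 3 pairs (correlation 0.206 to 0.292). The main tests used no replicate block. The genes, the wider list and the tests were chosen with earlier results of these data known. Named were the 10 genes, called genes of the wider list, the 3 most similar genes of each called gene and the label markers, and *Adora3*, *Panx1*, *P2ry1*, *Alpl*, *Enpp1* and *Cd38* after their values were seen. Alternatives were DESeq2, its size factors, no filter, at least 10 counts in every library, a replicate block, other sets of libraries, each library left out, and, added after seeing the data, thinning, the legacy quasi-likelihood and the block over the M1 and M0 libraries alone. The test was tried on simulated counts.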

Additional observations from a re-analysis of the deposited data

How the results depend on the processing

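The calls of *P2rx4* and *Adora2b* in M1 held under all alternatives run. The count of the 10 genes called in M1 was 3, and 2 with at least 10 counts in every library, on thinning and with the replicate block over 6 libraries, each without *P2ry12*. It was 4 with DESeq2 and with no filter, and 3 to 5 without 1 library, 5 being without M0 replicate 2, which added *P2ry14* and *Adora2a*. The fits that called *Adora2a* tested it on counts that lay almost only in M1. In CaP it was 1, and 0 with at least 10 counts in every library, the replicate block, the 6 libraries alone, thinning and the legacy quasi-likelihood, and 0 to 1 without 1 library, the 1 being *P2ry14* without M0 replicate 2. At least 10 counts in every library left *P2ry12* untested. The wider list had 5 calls in M1, and 2 with at least 10 counts in every library, 2 on thinning, 3 with the replicate block over 6 libraries and 2 to 4 without 1 library. In M2 it had 1, and 0 with at least 10 counts, the replicate block, the 6 libraries alone, thinning and the legacy quasi-likelihood, and 0 to 1 without 1 library. The cause was not tested.

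Directions turned only in comparisons in which the gene was not called. Without 1 library the log2 fold change ranged from −0.40 to 0.18 for *P2ry6* in M1, from −0.034 to 0.89 for *P2ry14* and −0.043 to 0.52 for *Entpd1* in M2, and in CaP from −0.018 to 0.16 for *P2rx4*, −0.36 to 0.23 for *P2ry6* and −0.31 to 0.25 for *Entpd1*. In SiO2 it ranged from −0.18 to 0.39 for *P2ry6* and −0.13 to 0.50 for *Adora2b*, and between CaP and SiO2 from −0.16 to 0.54 for *P2ry2* and −0.33 to 0.031 for *P2ry6*. *Entpd1* in CaP, 0.0065 in the report, was −0.037 with DESeq2, −0.012 with its size factors, −0.0085 with at least 10 counts, −0.016 with the 6 libraries alone and −0.022 with the legacy quasi-likelihood. On thinning, *P2rx4* in CaP was −0.0078 and *P2ry6* in SiO2 −0.0035.

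Apart from M1 and M0, libraries with the same number did not deviate together in every pair, with 0 of 3 pairs over a correlation of 0.1 in M2, 1 in CaP and 1 in SiO2 against M0, and 2 between CaP and SiO2. The replicate block over all libraries took the calls over all genes from 2340 to 2122 in M1, from 688 to 502 in M2, from 109 to 59 in CaP and from 44 to 19 in SiO2. In the library of the smallest scaled size 1 count is 0.132 CPM, so that *P2ry12*, *P2ry14* and *Adora2a* rest on few counts there.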

Other observations

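*P2rx7* and *P2rx4* are adjacent coding genes, and their ratio within a library was looked at after the levels were seen. The ratio of *P2rx7* to *P2rx4* per length was 4.05 ± 0.189 in M0, 4.22 ± 0.268 in CaP, 3.72 ± 0.42 in SiO2, 3.11 ± 0.968 in M2 and 1.64 ± 0.294 in M1 (SD, n = 3). The M1 libraries spanned 1.44 to 1.98 and the other 12 libraries lay between 2.47 and 4.39. The ratio of *P2ry6* to *P2ry2* per length, for another adjacent pair, was 9.84 ± 1.84 in M0, 11.1 ± 0.803 in M2, 6.89 ± 0.695 in SiO2, 5.37 ± 1.12 in CaP and 4.67 ± 0.958 in M1. In the M1, CaP and SiO2 libraries it lay between 3.64 and 7.33, and in M0 and M2 between 7.75 and 11.6. These ratios are descriptions, with no test.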
